A study of Gallus gallus with 12 samples.

Results

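The small microchromosomes 21, 23, 24, 26, 27 and 28 of the chicken were described through the peaks of methylated DNA immunoprecipitation sequencing (MeDIP-seq) that lay on them. The set was taken by chromosome name, on build galGal4, from 6 deposited peak lists. It held 39084 of the 356324 peaks in all lists. Chromosomes 16, 22 and 25 are also small, but were left outside the set with their peak coverage already known. The likeness of the 6 chromosomes to each other, and their contrast with other chromosomes, are thus partly a matter of that choice.

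Chicken chromosomes fall into a few large macrochromosomes and many microchromosomes. The microchromosomes are known to be gene-dense, rich in G and C and rich in CpG dinucleotides, the usual site of DNA methylation in vertebrates. MeDIP-seq recovers sheared DNA with an antibody against methylated cytosine. A peak is therefore a stretch where immunoprecipitated reads exceeded the input, and it depends on how many CpGs a stretch holds as well as on the share of them that is methylated. CpG content was not analysed here.

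The DNA came from liver of chickens labelled as resistant to ALV-J, the J subgroup of avian leukosis virus and a cause of tumours in poultry, and of chickens labelled as susceptible to it. There were 3 immunoprecipitated libraries of ALV-J-resistant and 3 of ALV-J-susceptible chickens, and each of the 6 had an input library, made without immunoprecipitation, under the same sample number. Within a group they are numbered as replicates 1 to 3 in accession order, and where 3 values of a group are given they stand in that order. The labels give resistance and tissue and do not say outright that each sample was a separate bird, so p-values measure the spread between these samples. Over all chromosomes there were 64559, 61753 and 56120 peaks in the resistant lists, against 55759, 62534 and 55599 in the susceptible lists. Sequencing depth is unknown. Resistant replicate 3 and susceptible replicate 3 stood apart from the other libraries: their peaks covered 65.3 and 68.1 kb per Mb of chromosome Z, against 29.9 to 31.8 kb per Mb in the rest, and their peaks were the widest. On chromosome W they covered 50.2 and 53.3 kb per Mb, against 179 to 189 kb per Mb in the rest. Female birds carry Z and W and males a pair of Z. The labels give no sex, and a part of sex in the results was not tested.

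The 6 chromosomes had a length of 34.1 Mb together, measured up to the last peak end of the 6 lists and so a lower bound. This was 3.4% of the measured length of all chromosomes. They held 10.8 to 11.3% of the peaks and 12.7 to 13.4% of the peak-covered length of a library. Coverage, the length under peaks in kb per Mb of chromosome, was 172, 167 and 172 in the resistant libraries, against 160.4, 174 and 176 in the susceptible libraries. Susceptible replicate 1 was the lowest and susceptible replicate 3 the highest, so the resistant values lay inside the range of the susceptible ones.

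The set was compared with the larger microchromosomes 11 to 14 and 17 to 20, measured in the same libraries. The tests did not allow for the choice of the set, which was made with coverage known. Their units are libraries, so they show that libraries agreed on these chromosomes, not that small and larger chromosomes differ in general. Coverage is the product of peaks per Mb and mean width, so the measures are not independent. Of the small chromosomes left out, 22 had a mean coverage of 105 kb per Mb, 16 of 223 and 25 of 332. The 6 small chromosomes were more densely covered, at 170.5 ± 5.74 kb per Mb against 86.9 ± 3.07 kb per Mb on the larger ones (mean ± SD, n = 6 libraries). The coverage was thus 1.96 times as high on average. Peaks were 1.78 times as many, with 191 ± 11.5 per Mb on the small and 107 ± 8.37 on the larger chromosomes. They were 1.1 times as wide, at 896 ± 61.6 bp on the small and 814 ± 59.7 bp on the larger chromosomes. The median spacing, from the end of a peak to the start of the next, was 1460.2 ± 67.3 bp on the small and 2157 ± 93.4 bp on the larger chromosomes. Each of these differences had the same direction in 6 of 6 libraries (exact sign-flip permutation test over libraries, two-sided, p = 0.031, the smallest it can give with 6 libraries, and 0.031 after Benjamini-Hochberg adjustment over 5 measures). The greater width did not hold for each chromosome: on chromosome 24 peaks averaged less than on 7 of the 8 larger microchromosomes. Nor did the shorter spacing: its median on chromosome 24, at 1722 bp, was above the 1688 bp of chromosome 19. Coverage on chromosomes 17 and 19, at 131 and 125 kb per Mb, was not far below the 142 of chromosome 24 and the 145 of chromosome 21. The macrochromosomes 1 to 5 had 25.2 ± 1.24 kb per Mb (n = 6).

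Long stretches without a peak made up a small share of the spacings. Of the spacings on the small chromosomes, 4.26 ± 0.43% were longer than 20 kb, against 10.3 ± 0.856% on the larger microchromosomes and 31.1 ± 1.87% on chromosomes 1 to 5 (n = 6 libraries). Spacings under 500 bp made up 27.1 ± 0.937%, 21.6 ± 0.708% and 11.6 ± 0.654% in the same order of chromosome sets.

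The strength of peaks was compared by rank, since scores come from the authors' peak caller and depend on depth. Each peak was given its percentile within its library's whole list. The median peak of the small chromosomes stood at percentile 58.8 ± 0.855, against 53.5 ± 0.598 on the larger microchromosomes, and was higher in 6 of 6 libraries (exact sign-flip permutation test, p = 0.031, adjusted 0.031 over the same 5 measures). The 10% of peaks with the highest scores in a list included 13.3 ± 0.6% of the small chromosomes' peaks and 10.6 ± 0.479% of the larger ones' (n = 6 libraries). Chromosomes 24 and 26 lay below the mean of the larger ones, at 8.72 ± 0.639% and 9.99 ± 0.804%. In median percentile, chromosome 24 at 53.7 was below chromosomes 17, 18 and 19, at 55.5, 54.7 and 56.4. Chromosome 26, at 55.8, was below chromosome 19. The widest peak of a library on the small chromosomes measured 9.16 ± 1.43 kb, against 14.8 ± 3.67 kb on the larger microchromosomes. A maximum depends on the number of peaks, which averaged 6514 on the small and 12665.5 on the larger ones. Peaks of at least 2 kb made up 5.85 ± 1.07% of the peaks on the small and 4.74 ± 0.697% on the larger ones. The excess did not hold for each chromosome. The mean was 6.57% on 23, 7.92% on 27 and 9.15% on 28. On 21, 24 and 26, at 4.73%, 3.04% and 4.42%, it was no higher than on the larger ones.

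The 6 chromosomes differed among themselves, and in much the same way in every library. Coverage was 213 ± 6.53 kb per Mb on chromosome 28, 187 ± 7.87 on 26, 187 ± 6.99 on 27, 167 ± 5.1 on 23, 145 ± 5.16 on 21 and 142 ± 6.47 on 24 (mean ± SD, n = 6). Of the 15 pairs of chromosomes, 14 were ordered alike in all 6 libraries (exact sign-flip permutation test, adjusted p = 0.0335 for each of the 14 over 15 pairs). The exception was the neighbouring pair 26 and 27, which differed by 0.0951 ± 6 kb per Mb (adjusted p = 1 by the same exact test). Chromosome 26 was higher in 2 of 6 libraries, resistant replicates 1 and 2, which lacked peaks in a stretch of chromosome 27 described below. Chromosomes 21 and 24 differed by only 3.57 ± 2.66 kb per Mb, but 21 was higher in every library. With only peaks scoring at or above the pooled median of all lists, all 15 pairs were ordered alike. Chromosome 27 then averaged 148 kb per Mb and chromosome 26 averaged 133, with 27 higher in every library.

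**Figure D1:**
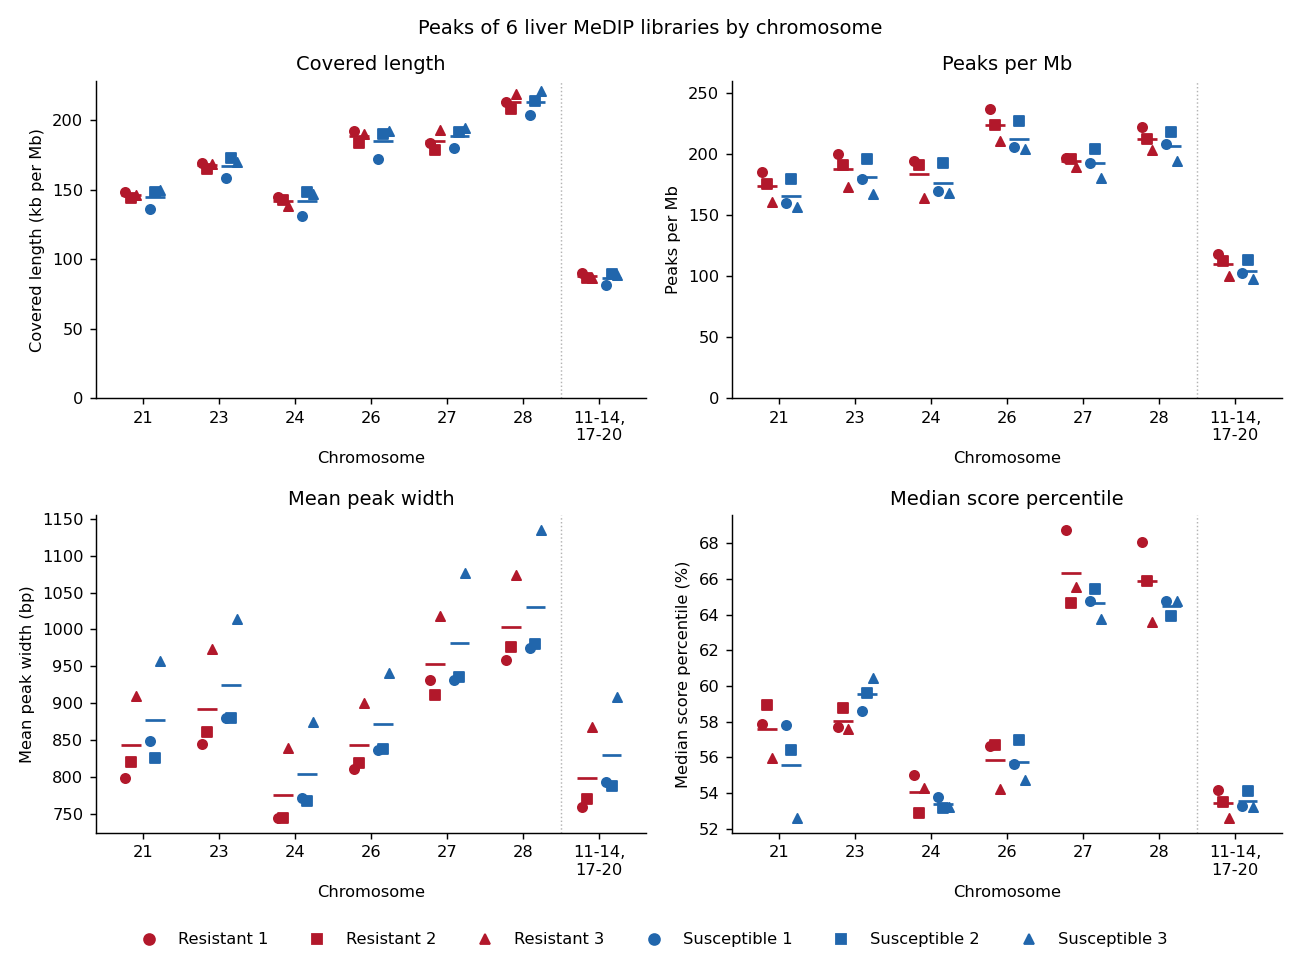
Covered length (kb per Mb), peaks per Mb, mean peak width (bp) and median score percentile within the library's list, for 6 small microchromosomes and, right of the dotted line, chromosomes 11 to 14 and 17 to 20 together. Each symbol is 1 library, resistant in red and susceptible in blue, and bars are group means of 3 libraries. The axes of the lower panels do not start at 0. Chromosome 28 is highest in covered length in every library, chromosomes 26 and 27 lie close in covered length but differ in peak number, width and score, and replicate 3 of each group has the widest peaks throughout.

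Chromosomes 26 and 27, whose coverage could not be told apart with all peaks kept, differed in how many peaks they had and how wide these were. Chromosome 26 had the more peaks per Mb, with 237, 224 and 211 in the resistant libraries, against 206, 227 and 204 in the susceptible ones. Chromosome 27 had 197, 196 and 189 peaks per Mb in the resistant libraries, against 193, 204 and 181 in the susceptible ones. The difference of 25 ± 9.21 peaks per Mb had the same direction in 6 of 6 libraries (exact sign-flip permutation test, adjusted p = 0.0391 over 15 pairs). Peaks were wider on chromosome 27 by 110.1 ± 17.6 bp, again in 6 of 6 libraries (same exact test, adjusted p = 0.0335), and averaged 968 ± 65.1 bp there against 857 ± 51.6 bp on chromosome 26. They also ranked higher, with a median score percentile of 65.5 ± 1.72 on chromosome 27 and 55.8 ± 1.14 on chromosome 26. The 10% of peaks with the highest scores included 18.3 ± 1.25% of the peaks of chromosome 27 and 9.99 ± 0.804% of those of chromosome 26 (n = 6).

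Chromosome 28 combined many peaks with wide ones. It had 210.0 ± 10.1 peaks per Mb, below the 218 ± 13.3 of chromosome 26 in 5 of 6 libraries, a difference that did not pass the threshold of 0.05 (exact sign-flip permutation test, adjusted p = 0.067). Its peaks averaged 1016 ± 71.5 bp, the widest mean of the 6 chromosomes in every library. They were also the most closely spaced, at a median of 1096 ± 60.8 bp. Peaks of at least 2 kb held 27.3 ± 2.92% of the covered length on chromosome 28 and 10.3 ± 1.66% on chromosome 24 (n = 6).

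Chromosome 24 stood at the other end. Its peaks averaged 789.9 ± 54.2 bp, which was below each of the other 5 chromosomes in every library, and 8.72 ± 0.639% of them were among the 10% with the highest scores in their list. Its median spacing of 1722 ± 126 bp was the longest of the set, although it did not differ from the 1645 ± 129 bp of chromosome 23 beyond the spread between libraries (longer in 5 of 6 libraries, adjusted p = 0.134 by the exact sign-flip permutation test). Chromosome 21 had the fewest peaks per Mb, at 169.7 ± 12.1. Its mean peak width of 860.0 ± 60.8 bp differed from that of chromosome 26 by 2.57 ± 12.2 bp (adjusted p = 0.594 by the exact sign-flip permutation test). In median score percentile, 10 of the 15 pairs were ordered alike in all libraries, and the 5 that were not were 27 with 28, 24 with 26, and 21 with each of 23, 24 and 26.

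Coverage was uneven along the chromosomes, and the unevenness was shared by the libraries. In bins of 500 kb, of which 68 were at least 250 kb long, mean coverage ran from 18.5 to 338 kb per Mb, with a median of 179 kb per Mb. It was below 100 kb per Mb in 17 bins and above 250 kb per Mb in 17. Over bins, the coefficient of variation was 50.8%, whereas over the 6 libraries it was 4.88% in the median bin. Such unevenness was not particular to the set. Over bins the coefficient was higher elsewhere, at 92.5% on the larger microchromosomes and 148% over all chromosomes. Pearson's r between a pair of libraries across these bins was 0.993 to 0.997, given as a description, since the bins share their DNA sequence and the authors' peak calling. On the larger microchromosomes it was 0.997 to 0.998. Chromosome 26 was the most even, with a highest bin at 3.25 times its lowest, and chromosome 21 the most uneven, at 17.2 times.

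**Figure D2:**
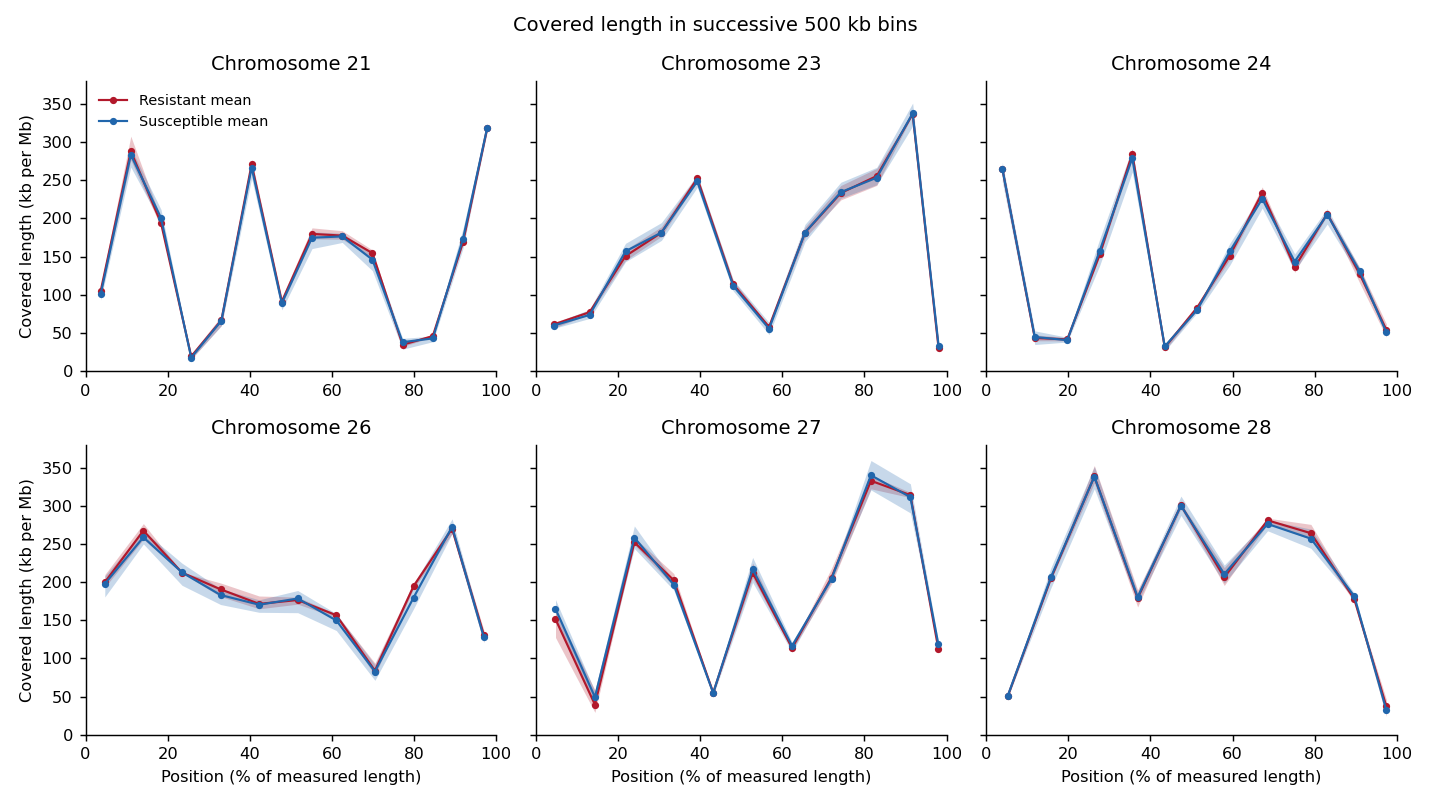
Covered length (kb per Mb) in successive 500 kb bins of each chromosome, against position as a percentage of the measured length. Lines are means of 3 resistant (red) and 3 susceptible (blue) libraries, and shaded bands run from the lowest to the highest library. The group lines lie almost on each other, and bins range from 18.5 kb per Mb on chromosome 21 to 338 kb per Mb on chromosome 28.

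On chromosome 28 the dense part was the interior, with bins of 179.7 to 338 kb per Mb, and both ends were sparse. The first bin, 28:1-500000, had a coverage of 53.6, 50.1 and 47.7 in the resistant libraries, against 52.2, 51.2 and 49 in the susceptible ones. The highest bin, 28:1000001-1500000, had a coverage of 329.9, 333 and 353 in the resistant libraries, against 322, 341 and 351 in the susceptible ones. Coverage thus differed several-fold between these bins in every library.

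Chromosome 21 ran the other way at its far end. Its last bin, 21:6500001-6801243, was its highest, with a coverage of 322, 313 and 319.8 in the resistant libraries, against 317, 315 and 325 in the susceptible ones. Its lowest, 21:1500001-2000000, had a coverage of 22.3, 20 and 15.5 in the resistant libraries, against 19, 15.9 and 18.3 in the susceptible ones. The widest region of the chromosome with a peak in all lists, 21:6528257-6539270, lay in that last bin, and peaks filled 10.6 to 11 kb of its 11 kb in each library.

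Chromosome 23 rose bin by bin over its last 2 Mb of whole bins to its highest, 23:5000001-5500000, with a coverage of 336, 336 and 338 in the resistant libraries, against 321, 341 and 351 in the susceptible ones. The remaining 223 kb at its end fell to 31.7 ± 2.23 kb per Mb (n = 6). Its lowest bin of at least 250 kb, 23:3000001-3500000, had 56.7 kb per Mb on average. On chromosome 24 the highest and the lowest bins were neighbours: 24:2000001-2500000 had 282 kb per Mb on average and 24:2500001-3000000 had 31.7. The first bin of chromosome 24 was dense as well, at 265 ± 9.69 kb per Mb. Chromosome 26 was lowest in 26:3500001-4000000, at 83.4 kb per Mb, and highest in 26:4500001-5000000, at 271. Chromosome 27 was highest in 27:4000001-4500000, at 336 kb per Mb.

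The first and last bins were compared with those between them, summed over the 6 chromosomes within each library. Ends had 133 ± 3.72 kb per Mb and interiors 176 ± 6.19 kb per Mb, a difference of -43.9 ± 4.14 kb per Mb with the same sign in 6 of 6 libraries (exact sign-flip permutation test, two-sided, p = 0.031). The size of this difference depended on the bins, being -75.9 kb per Mb with bins of 250 kb and -20.8 kb per Mb with bins of 1000 kb. The p reflects the spread between libraries and not that between chromosome ends. The difference did not hold for each chromosome. Both ends lay below the interior mean in every library on chromosomes 23, 27 and 28. The last bin of chromosome 21 and the first bin of chromosome 24 lay above it in 6 of 6 libraries, and the first bin of chromosome 26 in 5 of 6.

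Stretches without a peak in any list showed how sharply coverage could stop. Those longer than 20 kb numbered 45 on chromosome 21, where they took up 24.7% of the measured length, and 13 on chromosome 26, where they took up 9.83%. Chromosome 28, the most densely covered, had 31 such stretches over 22.6% of its length. The longest on each chromosome were 21:1866194-1958831 (92.6 kb), 23:5557281-5608155 (50.9 kb), 24:2710800-2812574 (102 kb), 26:1145918-1238749 (92.8 kb), 27:918483-1038052 (119.6 kb) and 28:1308774-1407103 (98.3 kb). On chromosome 28 the same stretch measured 98.4 to 98.5 kb in each single library, and on chromosome 26 it measured 92.9 to 93 kb. On chromosomes 21 and 24 the extent differed between libraries, from 92.6 to 191 kb and from 102 to 192 kb. Whether reads can be aligned in these stretches was not tested, so the absence of a peak there is not a measure of methylation.

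The strongest regions could not be ranked finely, because the deposited score piled up at 3100. Between 158 and 200 peaks of a library on these chromosomes had exactly that score, and 10 to 19 exceeded it. Peaks at or above it were 2.74 to 3.26% of the peaks on these chromosomes. For the set as a whole the share was close to that elsewhere, at 2.59 to 3.12% on the larger microchromosomes and 2.5 to 2.94% over all chromosomes. By chromosome it was 4.69 to 5.77% on 27 and 4.64 to 5.95% on 28. It was 2.3 to 2.94% on 21, 1.69 to 2.63% on 23, 1.38 to 2.05% on 24 and 1.47 to 2.01% on 26. Merged regions at or above a score of 3100 in all 6 lists were counted only on the 6 chromosomes, so no share elsewhere stands beside them. There were 101, with a median length of 4124 bp. Chromosome 28 had 35 of them among its 1114 merged regions and chromosome 27 had 21 among 1202. There were 17 among 1523 on chromosome 21, 14 among 1338 on 23, 7 among 1552 on 24 and 7 among 1476 on 26. The first along each chromosome were 21:561157-562899, 23:2-3380, 24:207955-212078, 26:488958-494592, 27:25552-32025 and 28:29246-31485. The longest regions with a peak in all lists on the other chromosomes were 23:2016828-2025162 (8335 bp), 24:5221462-5229100 (7639 bp), 26:1732883-1741287 (8405 bp), 27:4655409-4664448 (9040 bp) and 28:3002659-3013421 (10763 bp).

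Sharing between libraries was described by merging overlapping or touching peaks of the 6 lists into regions. On the 6 chromosomes 3771 of 8205 regions had a peak in all 6 lists, which is 46.0% (95% Clopper-Pearson interval 44.9 to 47.0%, counting error only). Over all chromosomes the share was 33.5%, and on the larger microchromosomes 39.2% (38.5 to 39.9%). The share was 53.8% on chromosome 28, 49.1% on 27, 45.7% on 26, 44.8% on 23, 44.3% on 21 and 40.9% on 24. A high share was not particular to the set. Of the larger microchromosomes, 17 and 19, at 43.3% each, and 18, at 41.5%, lay above chromosome 24. Of the small chromosomes left out, 22 had 45.9%, 16 had 51.0% and 25 had 62.2%. Regions found in all lists had a median length of 1150 bp and made up 67.9% of the merged length. Those found in a single list numbered 1441 (17.6%), with a median length of 432 bp.

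The share in all lists moved with region length. From 500 to under 1000 bp it was 37.7% on the small microchromosomes (36.2 to 39.3%), 38.2% on the larger ones and 37.4% on chromosomes 1 to 5. From 1000 to under 2000 bp it was 83.2% (81.4 to 84.9%), 83.8% and 82.9% in the same order, and from 2000 bp on it was 99.1%, 99.1% and 98.9%. Under 500 bp it was 1.76% (1.19 to 2.51%), 3.3% and 4.46%. The interval of the larger ones under 500 bp was 2.83 to 3.81%. These intervals cover counting error only, and neighbouring regions are not independent, so they are not a test between chromosome sets. The mix of lengths differed too: 20.7% of the regions on the small chromosomes were shorter than 500 bp, against 29.7% on the larger microchromosomes and 45.3% on chromosomes 1 to 5. A region merged from more lists tends to be longer by construction, so length and sharing are not independent measures.

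**Figure D3:**
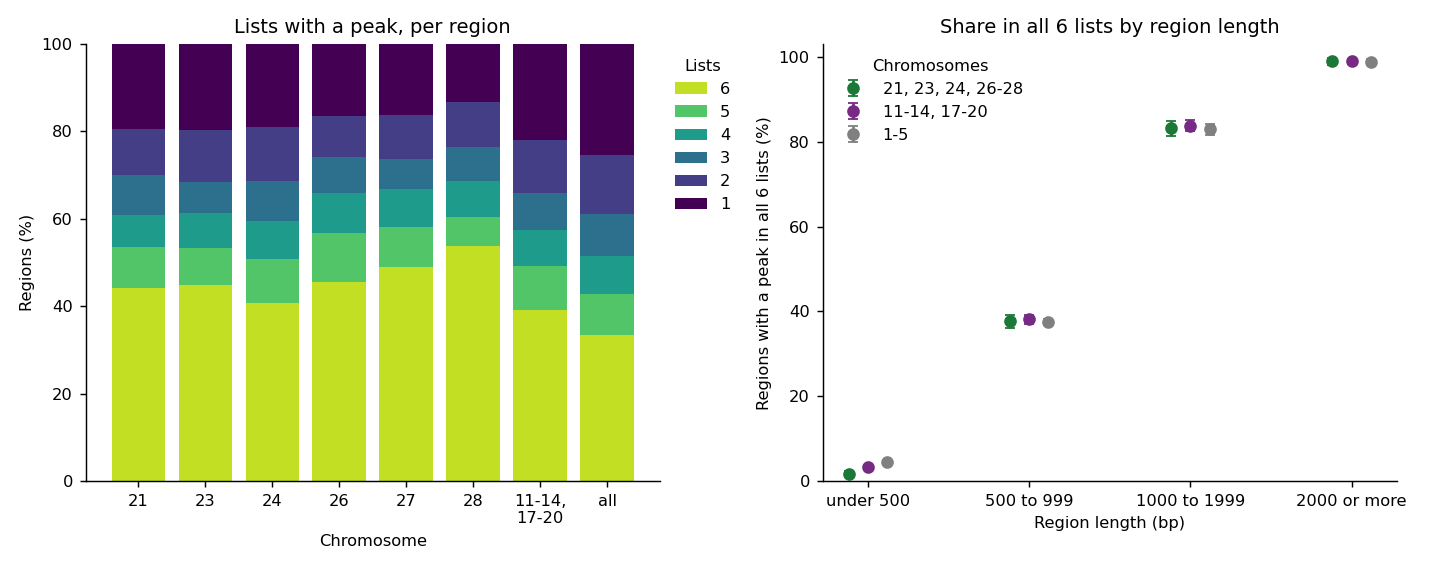
Left, regions merged from 6 lists by the number of lists with a peak in them, as percentages per chromosome. Right, the percentage with a peak in all 6 lists by region length, for the small microchromosomes, the larger microchromosomes and chromosomes 1 to 5, with exact 95% intervals that cover counting error only. Of the chromosomes shown, 28 has the highest share in all lists (53.8%). From 500 bp on the 3 chromosome sets lie within 2 percentage points of each other at the same region length.

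Single libraries differed in how many regions they added or missed. Of the 1441 regions found in 1 list, resistant replicates 1 to 3 held 366, 260 and 185, and susceptible replicates 1 to 3 held 137, 323 and 170. Of the 759 found in 5 lists, the missing library was resistant replicate 1, 2 or 3 in 101, 124 and 151 regions, and susceptible replicate 1, 2 or 3 in 145, 85 and 153 regions. The 3 libraries with the most peaks on these chromosomes, resistant replicates 1 and 2 and susceptible replicate 2, held more single regions and missed fewer shared ones than each of the other 3. The Jaccard index of a pair of libraries on these chromosomes, the length covered in both over the length covered in either, ran from 0.694 for resistant replicates 1 and 3 to 0.716 for resistant replicate 3 with susceptible replicate 3. It averaged 0.701 within groups (n = 6 pairs) and 0.705 between groups (n = 9 pairs).

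ALV-J-resistant and ALV-J-susceptible libraries were then compared on these chromosomes. Coverage averaged 171 ± 2.81 in the resistant libraries and 170.3 ± 8.63 in the susceptible ones (kb per Mb, mean ± SD, n = 3 each), a difference of 0.433 kb per Mb (exact permutation test, two-sided, p = 1, adjusted p = 1 over 5 measures). Peaks per Mb numbered 194 ± 11.7 in resistant and 187 ± 12.5 in susceptible libraries. Mean peak width was 880.4 ± 59.6 bp in the resistant libraries and 911 ± 72.3 bp in the susceptible ones. Median spacing was 1436 ± 66.3 bp in the resistant libraries and 1484 ± 71.9 bp in the susceptible ones. The median score percentile was 59 ± 1.21 in resistant and 58.5 ± 0.423 in susceptible libraries. These 4 measures each gave an exact permutation p of 0.5 (adjusted p = 0.625). With 3 libraries against 3 the smallest p is 0.1, so no such comparison could pass 0.05.

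The direction of the coverage difference was not stable. It was -2.24 kb per Mb with equally long lists, -4.53 kb per Mb without susceptible replicate 1, and 2.5 kb per Mb in the 4 libraries with low coverage of chromosome Z. In mean width, replicate 3 of each group lay well above the others, at 949 bp in the resistant and 994 bp in the susceptible group. The remaining resistant libraries had 842 and 850.1 bp and the remaining susceptible libraries 872 and 867 bp. Without susceptible replicate 3 the width difference was 11.2 bp, and with all libraries it was -30.5 bp.

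By chromosome, the resistant minus susceptible difference in coverage was largest on chromosome 26, at 3.72 kb per Mb, with 189 ± 4.49 in resistant and 185 ± 11.1 in susceptible libraries. On chromosome 27 it was -3.47 kb per Mb, with 185 ± 7.26 in resistant and 188 ± 7.76 in susceptible libraries. The other 4 chromosomes differed by -0.238 to 1.48 kb per Mb. Each had an adjusted p of 1 over 31 chromosomes (exact permutation test, n = 3 each). The groups overlapped on all 6, and over all 31 chromosomes the percentage without overlap was 0% in either direction.

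Bin by bin, the groups overlapped in each of the 68 bins of at least 250 kb. Over all chromosomes 4.73% of such bins had no overlap, 3.34% with every resistant library above every susceptible one and 1.39% the other way. With a score at or above the pooled median, 6 of the 68 bins (8.82%) did not overlap, against 5.58% of bins over all chromosomes, and resistant libraries were the higher in 4 of the 6. Of the 3 shorter end bins, 2 had every susceptible library above every resistant one, and over all chromosomes 2 of 13 bins of this kind (15.4%) did not overlap, the same 2. The end of chromosome 23 had a coverage of 29.8, 31.0 and 29.3 in the resistant libraries, against 34.1, 31.6 and 34.7 in the susceptible ones, and the end of chromosome 27 had 113, 112 and 113 against 117, 123 and 116. These bins hold 223 and 209 kb.

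Regions that separated the groups completely were few. Of the 8205 regions, 38 were resistant-only, with a peak in each resistant list and in 0 susceptible lists, and 21 were susceptible-only. Over all chromosomes the corresponding percentages were 0.577% and 0.32%. Exactly 3 lists shared 675 regions, and in 59 of these the 3 lists were those of 1 group. This is 8.74% (6.72 to 11.1% by the Clopper-Pearson method), close to the 9.46% over all chromosomes. Median lengths were 584.5 bp for the 38 regions of the resistant group and 578 bp for the 21 of the susceptible group. With equally long lists the counts were 27 resistant-only and 26 susceptible-only regions. Chromosomes 21, 23, 24, 26, 27 and 28 held 3, 9, 6, 8, 3 and 9 resistant-only regions. They held 2, 8, 3, 3, 2 and 3 susceptible-only ones. In the same order, their regions numbered 1523, 1338, 1552, 1476, 1202 and 1114. Of the regions in exactly 3 lists, 3.52, 17.7, 6.29, 8.87, 6.02 and 13.8% followed the groups. Counts were small, with 5 of 142 on chromosome 21 (1.15 to 8.03%) and 17 of 96 on 23 (10.7 to 26.8%). Chromosomes outside the set spread as well, such as 19 at 5.56% and 15 at 19.6%. No test was made between chromosomes.

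Most of these regions scored low in at least 1 of their lists. The median of a region's lowest score percentile was 9.29 for resistant-only and 16.7 for susceptible-only regions, and 0 resistant-only and 1 susceptible-only region had peaks at percentile 50 or above in each of their lists. The lowest of 3 percentiles tends to be low by construction. Other regions found in exactly 3 lists were not scored in this way, here or over all chromosomes. Whether low scores are particular to these group-only regions was therefore not tested. Group-only regions were ranked by the lowest of their 3 score percentiles, and the 3 highest-ranked resistant-only regions were all on chromosome 28. The first, 28:328814-329300, scored 266, 292 and 153 in the resistant libraries, and its nearest susceptible peak was 19434 bp away. The others, 28:4741504-4742163 and 28:3800200-3800753, had a susceptible peak within 979 and 478 bp. The region 28:4741504-4742163 holds the last peak end on chromosome 28, and so sets its measured length. Among susceptible-only regions, 24:3026300-3027101 ranked first, and after it came 23:4488804-4489465 and 23:5199900-5200705, with resistant peaks 480 and 205 bp away. Of these 6 regions, 24:3026300-3027101 was the only one with all 3 scores at or above the pooled median of 194. The others had a lowest score of 124 to 153. A minimum at the pooled median thus removed them by definition and was no separate check.

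The bin that varied most between libraries was 27:500001-1000000, with a coefficient of variation of 29.0%, against 15.3% in the next. It had a coverage of 29.3, 30.5 and 58.7 in the resistant libraries, against 40.8, 57.1 and 50 in the susceptible ones. In windows of 100 kb, looked at after these values were seen, part of the difference lay in 27:500001-600000. Peaks there covered 0, 0 and 7.75 kb in the resistant libraries, against 3.96, 5.51 and 4.05 kb in the susceptible ones. Resistant replicates 1 and 2 had no peak in 27:479117-646563, a stretch of 167 kb. Resistant replicate 3 had peaks in 12 of the 13 regions merged there, and susceptible replicates 1 to 3 had peaks in 7, 12 and 7, so the pattern did not follow the groups. Resistant replicates 1 and 2 were among the 3 lists with the most peaks. Whether their reads could be aligned in the stretch, or their DNA lacked it, was not tested, and the missing peaks are not a measure of methylation. Of the 346 windows of 100 kb on the 6 chromosomes, 6 had a library with no covered length. Only in 27:500001-600000 did another library then have 3 kb or more. That minimum lies below the 3.96 kb of this window, which was already seen, and windows of other chromosomes were not counted. The count is thus a description and not a test. Libraries also differed nearer the start, in 27:200001-300000, where resistant replicate 2 had 13.6 kb and the other resistant libraries 24.2 and 25.3 kb.

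**Figure D4:**
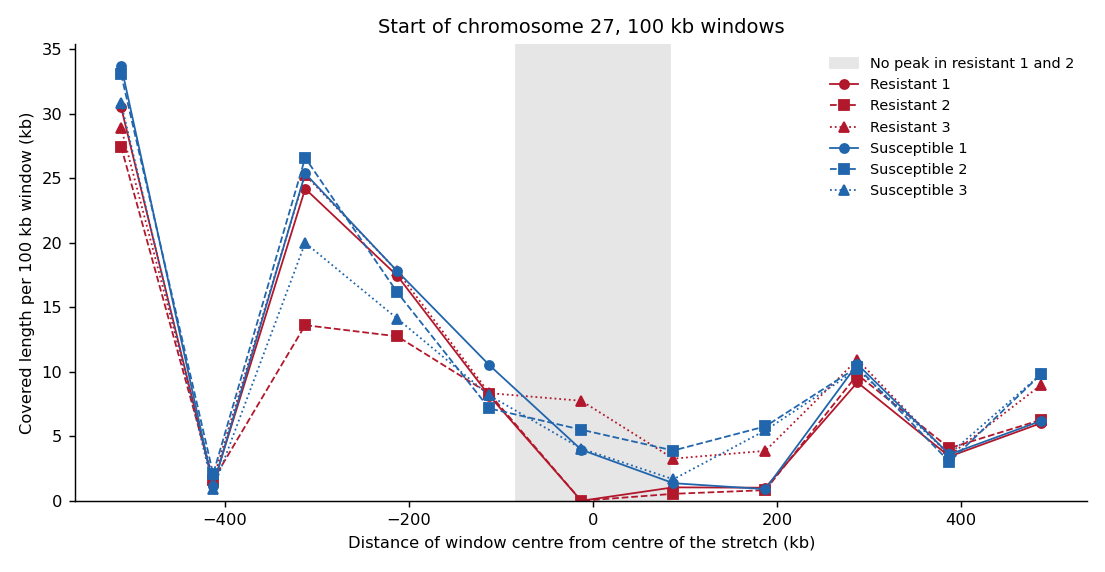
Covered length (kb) in 100 kb windows at the start of chromosome 27, against the distance of each window's centre from the centre of the stretch without peaks in resistant replicates 1 and 2 (grey). Each line is 1 library, resistant in red and susceptible in blue. In the window nearest the centre, resistant replicates 1 and 2 are at 0 kb and the other 4 libraries at 3.96 to 7.75 kb.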

How the data were processed

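Each immunoprecipitated library has 1 peak list, deposited by the authors, with position and a score for every peak. Peak names record MACS, and each list is named for 1 library and its own input, so peaks were called per library. Cutadapt, Bowtie2 and build galGal4 are named in the submitters' processing notes, without versions. Scores as deposited ran from 80 to 3233 and were read as -10 times the log10 of the caller's p-value, the lowest then matching the 1e-08 in the list names. Scores rise with depth and were used only within a list, except for 1 alternative with a common minimum at the pooled median. Read depth is unknown, and where no peak is listed none had passed the authors' threshold.

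Starts were converted to count from 1. Coverage, peaks per Mb, width, spacing, bins and merged regions were computed in Python 3.11.15 with numpy 2.4.6, pandas 2.3.3 and scipy 1.17.1, and checked on simulated lists. Groups were compared with exact permutation tests of 3 libraries against 3, and chromosomes with exact sign-flip permutation tests over the 6 libraries, adjusted by Benjamini-Hochberg. The test of pairs in peaks per Mb was added later than the others. No test was made per region. On each chromosome the named regions were the highest and lowest 500 kb bins, the first of the regions with the highest score percentile, the widest region in all lists and the longest stretch without peaks, and over the set the 3 highest-ranked group-only regions in each direction. The 6 chromosomes, lists of chromosomes and tests were chosen with earlier results of these data known. Genes, CpG islands and sequences were not used here, since no galGal4 genome or annotation was at hand.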

Additional observations from a re-analysis of the deposited data

How the results depend on the processing

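No paired analysis was made, because the sample numbers in the labels of the 2 groups differ and do not show which samples, if any, form pairs. Leaving out a library leaves 5, with a smallest sign-flip p of 0.0625, and the 4 libraries with low Z coverage allow 0.125, so none of the differences between chromosome sets could then pass 0.05. The small minus larger differences kept their sign under these alternatives: 82.8 to 84.5 kb per Mb in coverage (82.1 in the low-Z libraries), 82.8 to 84.5 peaks per Mb (85.3), 80.5 to 82.0 bp in width (80.2), -709 to -689.8 bp in spacing (-694) and 5.2 to 5.42 in score percentile (5.48), as did ends minus interiors (-45.3 to -42.8 kb per Mb). At the pooled median score the small minus larger differences kept their sign but changed in size. They were 66.1 kb per Mb in coverage, 54.8 peaks per Mb, 66.6 bp in width, -784 bp in spacing and 4.36 in score percentile. Ends minus interiors was then -31.8 kb per Mb. Group differences, resistant minus susceptible, ran from -4.53 to 3.31 kb per Mb in coverage with 1 library left out (negative without resistant replicate 1 or 3 or susceptible replicate 1), from 1.8 to 13.9 in peaks per Mb, from -64.9 to 11.2 bp in width, from -89.6 to -16.1 bp in spacing and from -0.0131 to 1.17 in score percentile. By chromosome they ran, in kb per Mb, from -3.0 to 4.13 on 21, -3.88 to 3.3 on 23, -5.78 to 2.74 on 24, -2.68 to 7.47 on 26, -7.84 to -0.344 on 27 and -4.25 to 4.52 on 28. With equally long lists they turned to -2.24 for the set, -1.11 on 21, -2.15 on 23, -0.232 on 26 and -1.54 on 28. At the pooled median score they turned to -0.379 on 23 and 0.732 on 24, with joined peaks to 0.649 on 24 and -0.346 on 28, and in the low-Z libraries to 4.19 on 24. The share of regions in all lists was 48.3% at the pooled median score, 52.9% in the low-Z libraries, 40.2% with a cover of at least 50%, 49.9% with regions joined over 500 bp, 52.6% in 1000 bp windows and 48.5 to 49.5% with 1 library left out. Of the 6 chromosomes, 28 had the highest and 24 the lowest share in each of these. Resistant-only and susceptible-only regions numbered 17 and 13 at the pooled median score, 217 and 149 in the low-Z libraries (34.1% of regions in 2 lists), 23 and 10 with joined regions and 72 to 128 and 48 to 80 with 1 library left out; susceptible-only regions numbered 33 in windows. Bins without overlap numbered 6 at the pooled median score, 3 with 250 kb bins and 1 to 17 with 1 library left out. Fewer libraries loosen the definition, for bins and for group-only regions alike. In the low-Z libraries a group holds only 2 lists, so more regions follow the groups by definition alone. Apart from bins at the pooled median score, shares over all chromosomes were not computed for these alternatives. These counts are therefore not a result about the 6 chromosomes. What lies behind the remaining changes was not tested. Read depth and alignability are unknown, which limits what a missing peak shows.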
